A study of Homo sapiens with 6 samples.

Results

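The 2000 most accessible distal sites of control A375 cells were examined, out of 80963 distal peaks, 147216 peaks on chromosomes 1 to 22 and 152800 peaks in the whole table. A375 is an established human melanoma line. ATAC-seq, in which the Tn5 transposase cuts DNA where chromatin is open, had been run on 3 libraries of cells that carried an empty vector (EV1 to EV3) and on 3 libraries of cells that overexpressed HMGB2 (HMGB2OE, OE1 to OE3), a chromatin protein that binds and bends DNA. Both conditions were stable lines made by lentiviral transduction, and the study describes the libraries as technical replicates of an experiment that was not repeated, so that errors here measure the spread between libraries. A peak was called distal when its centre lay more than 10 kb from every start site of a protein-coding or lncRNA transcript in GENCODE release 44 on hg38. Members were chosen by the mean of the EV libraries, scaled to each library's total count in peaks and to a common size (CPM), and their EV levels are therefore a description and not a finding.

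Distal accessible sites are often enhancers, short stretches of DNA where transcription factors bind and from which a gene far along the chromosome can be activated. In melanoma cells such sites carry binding words of AP-1, of the TEAD factors that act with YAP and of the lineage factors SOX10, MITF and TFAP2A. AP-1 is a dimer of JUN and FOS family proteins, and its word is read by cells in response to growth signals and stress. In bulk libraries, fewer cells with an open site, fewer copies of the site per cell and weaker opening of each copy cannot be told apart.

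The members ran from 145 CPM at rank 1 to 25.5 CPM at rank 2000, with a median of 33.7 CPM. Only 5 members lay above 100 CPM and 263 above 50 CPM, whereas the median of the distal peaks that were not members was 2.16 CPM. The cut was not a gap in the distribution. The last members inside, in an intron of SH3RF3 and near SAMD13, had EV means of 25.490 and 25.485 CPM, and the first peaks outside, near SLF2 and GRB7, had 25.473 and 25.468 CPM. Members made up 2.47% of distal peaks and held 7.49% ± 0.358 (SD, n = 3) of peak counts in EV libraries and 7.41% ± 0.198 (SD, n = 3) in HMGB2OE libraries. The lowest count of any member in any library was 341, and the median member had between 860 and 1588.5 counts in a library.

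The central 200 bases of 5 of the 6 highest members, of the largest rise and of the largest fall in HMGB2OE are shown first, since these are the sites at the extremes of the set. They were read from the plus strand of hg38, and positions count from 1. In the first sequence capitals mark bases inside words of 31 bases that also occur in the mitochondrial genome, and in the others capitals mark the AP-1 word TGACTCA or its reverse complement TGAGTCA, where there is one.
OR4F16 site, rank 1, chr1:633932-634131: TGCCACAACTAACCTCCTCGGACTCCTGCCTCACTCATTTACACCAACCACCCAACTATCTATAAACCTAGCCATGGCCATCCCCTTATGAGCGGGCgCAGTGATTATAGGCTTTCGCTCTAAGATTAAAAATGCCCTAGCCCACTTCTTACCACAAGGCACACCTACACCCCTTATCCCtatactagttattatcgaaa
SERTAD2 site, rank 2, chr2:64751169-64751368: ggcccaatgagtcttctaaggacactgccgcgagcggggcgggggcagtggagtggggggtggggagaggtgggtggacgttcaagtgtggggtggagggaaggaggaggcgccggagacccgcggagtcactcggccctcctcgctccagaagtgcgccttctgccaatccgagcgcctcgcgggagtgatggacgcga
S100A11 site, rank 3, chr1:152048083-152048282: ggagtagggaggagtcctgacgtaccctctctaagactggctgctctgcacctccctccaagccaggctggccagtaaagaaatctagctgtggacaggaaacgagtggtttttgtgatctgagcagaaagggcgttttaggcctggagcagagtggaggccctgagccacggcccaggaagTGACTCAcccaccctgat
CCDC200 site, rank 5, chr17:43251657-43251856: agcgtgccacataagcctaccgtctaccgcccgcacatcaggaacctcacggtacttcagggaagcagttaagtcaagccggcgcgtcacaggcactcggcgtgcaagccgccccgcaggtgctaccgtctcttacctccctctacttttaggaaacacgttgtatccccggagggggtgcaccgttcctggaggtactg
AZIN2 site, rank 6, chr1:33099498-33099697: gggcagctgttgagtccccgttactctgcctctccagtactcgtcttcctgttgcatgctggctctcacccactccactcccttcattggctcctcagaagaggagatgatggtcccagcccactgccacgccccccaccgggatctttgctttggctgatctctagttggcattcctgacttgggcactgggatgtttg
KCNA10 site, rank 1664, chr1:110556492-110556691: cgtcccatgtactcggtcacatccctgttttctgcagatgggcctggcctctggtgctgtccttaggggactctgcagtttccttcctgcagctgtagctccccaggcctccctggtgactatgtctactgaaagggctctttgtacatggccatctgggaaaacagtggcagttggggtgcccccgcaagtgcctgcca
UAP1 site, rank 534, chr1:162538939-162539138: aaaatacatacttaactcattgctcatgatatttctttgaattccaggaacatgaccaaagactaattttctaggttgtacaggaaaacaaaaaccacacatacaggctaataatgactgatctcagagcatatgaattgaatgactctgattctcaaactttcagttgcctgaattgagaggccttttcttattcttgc
The highest site shared 179 of its 200 central bases with the mitochondrial genome. Among the other highest members shown, the site beside S100A11 held 1 AP-1 word and the rest held none in this window. GC content spanned 34.5% in the largest fall to 68.5% in the site near SERTAD2.

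The highest member lay at chr1:633781-634282, between genes and 52.6 kb from the start of the olfactory receptor gene OR4F16. It measured 156, 106 and 173 CPM in EV1 to EV3 and 141, 117 and 235 CPM in OE1 to OE3. EV2 was the lowest library and OE3 the highest, and the conditions overlapped. The second, at chr2:64751018-64751519, lay 97.4 kb from SERTAD2, a transcriptional co-regulator of the cell cycle. Its levels were 112, 118 and 134 CPM in EV and 127, 116 and 137 CPM in HMGB2OE libraries. The third, at chr1:152047932-152048433, lay 11.2 kb from S100A11, which encodes a calcium-binding protein of the S100 family. It measured 105, 113 and 122 CPM in EV and 121, 110 and 122 CPM in HMGB2OE libraries. In both sites the libraries of the conditions were interleaved.

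Of the next 7, 6 are described here. They were an intron of CCDC200, an intron of AZIN2, an antizyme inhibitor that acts on polyamine synthesis, an intron of UQCC1 near FAM83C, an intergenic peak near GRAP, which encodes a signalling adaptor, an intron of CAMTA1, a calmodulin-binding transcription activator, and a peak 21.2 kb from DPM1, which makes the mannose donor for protein glycosylation. Of the 9 named so far, 4 lay in introns of protein-coding genes, 5 were intergenic and 3 held the AP-1 word anywhere in the peak. The CCDC200 and GRAP peaks were mostly repeated sequence, with 87.4% of the sequence words sampled in each found more than once in the genome. The part of other copies in their levels was not tested. Distal non-members within 1 Mb of each of the 9 had median EV levels between 0.599 and 3.91 CPM, and by the rule every non-member lay below the rank limit. Log2 fold changes of HMGB2OE over EV for the 9 lay between -0.16 and 0.17. The DPM1 peak was the only 1 of the 9 without overlap, at 88.4, 85.8 and 88.7 CPM in EV and 81.9, 79.5 and 76.8 CPM in HMGB2OE libraries. Overlap was also absent in 20.45% of members and in 25.1% of all tested peaks.

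**Figure D1:**
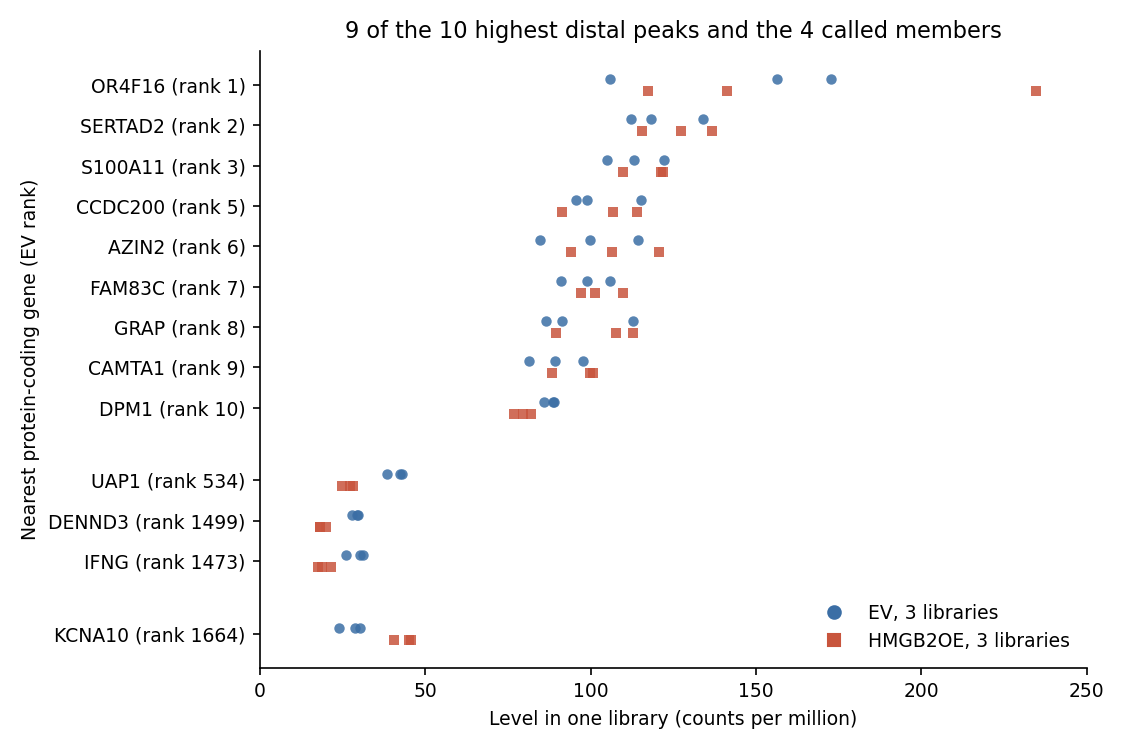
Level in each library, in CPM, of 9 of the 10 highest distal peaks and of the 4 members called in HMGB2OE against EV, named by the nearest protein-coding gene with their EV rank. Circles are the 3 EV libraries and squares the 3 HMGB2OE libraries. The conditions overlap in 8 of the 9 highest shown, where 25.1% of all tested peaks have no overlap, and the OR4F16 peak reaches 235 CPM in OE3.

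Some members stood apart by library and are described before the comparison. Of the members, 14 held at least 1 word of 31 bases that also occurs in the mitochondrial genome, and copies of mitochondrial DNA are known to lie in nuclear chromosomes. They included 3 peaks near OR4F16, at ranks 1, 23 and 355, and others near FAM174A, PCBD2, KIF2B and RBFOX2. All 14 were lowest in EV2 and highest in OE3. Their share of peak counts was 0.0796%, 0.0526% and 0.0854% in EV1 to EV3 and 0.0704%, 0.0584% and 0.120% in OE1 to OE3. The 11 peaks of the mitochondrial genome itself moved alike, with 1.823%, 1.252% and 2.031% of counts in EV and 1.661%, 1.359% and 2.776% in HMGB2OE libraries. The part of mitochondrial DNA in these members' levels was not tested. A pair of members without such words, near KIAA0825 at chr5:94570231-94570732 and near SPTLC3 at chr20:13167086-13167587, were named after their values were seen. They had the same order of libraries, with 57.0 CPM in EV2 and 138 CPM in OE3 for the KIAA0825 peak.

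The 10 members of highest dispersion between replicates lay on chromosomes 4, 5, 16, 17 and 20, with the genes CWH43, EMB, WSB1 and DEFB115 among the nearest. Their biological coefficient of variation in edgeR was 19.4% to 26.7%, against a median of 7.30% for the members. This is an estimate of the spread beyond counting error that is drawn towards that of other peaks of like count, and the observed spread of these peaks was larger. All 10 were highest in EV1 and lowest in EV2, and the summed level in the highest library was 4.61 times that in the lowest. In the CWH43 peak at rank 40 the levels were 114, 22.4 and 77.7 CPM in EV1 to EV3 and 51.6, 41.3 and 108 CPM in OE1 to OE3, or 71.4 ± 46.2 and 66.9 ± 35.8 CPM (SD, n = 3 each). At least 47.4% of the 31-base words of each of the 10 occurred more than once in the genome. Mostly repeated words were found in 35 members, or 1.75%, and in 9.34% of distal non-members. Among these members were the CCDC200 peak at rank 5 and the GRAP peak at rank 8, each with 87.4% of its words repeated. Their words had a median of 13 copies in the CCDC200 peak and 5 in the GRAP peak. The 14 and the 10 held no called member, and the numbers of members called at 1.5-fold, given below, were the same without them.

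**Figure D2:**
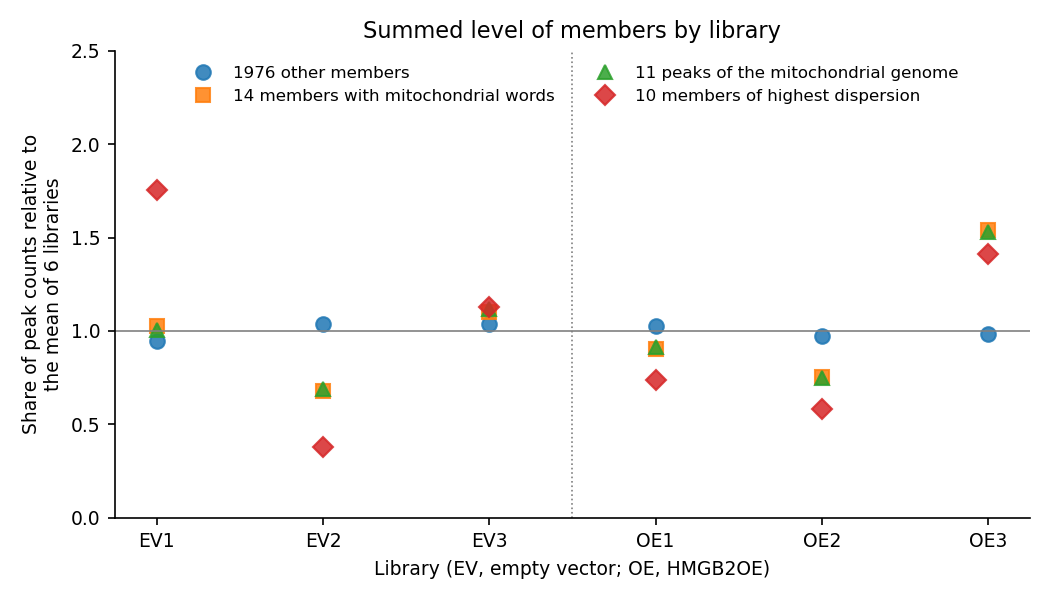
Share of peak counts in each library, divided by the mean over the 6 libraries, for 4 sets of peaks. Squares for the 14 members with mitochondrial words and triangles for the 11 mitochondrial peaks lie on each other and are highest in OE3, diamonds for the 10 members of highest dispersion are highest in EV1 and lowest in EV2, and circles for the other 1976 members stay near 1.

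Depth, the targeted gene and the cell type were checked over the whole table. Libraries held 26910189 to 45645294 counts in peaks, and pairs of libraries of 1 condition differed by more than counting error, with a chi-square per degree of freedom of 2.49 to 4.65. The peaks over the coding exons of HMGB2 rose from 28.7 ± 6.28 to 63.0 ± 10.6 and from 32.0 ± 15.7 to 98.4 ± 5.31 normalized counts (SD, n = 3 each, adjusted p = 0.00822 and 0.000113 from edgeR), where reads of the added copy and of the gene cannot be told apart. Of 9 melanoma and melanocyte markers, 5 had a promoter peak within 1 kb of a start site, SOX10, PAX3, MITF, TFAP2A and S100B, and the pigment genes TYR, MLANA, PMEL and DCT had none. No blood, endothelial or muscle marker, of 7, had such a peak, and 2 of 4 epithelial markers did, with KRT5 at 1.69 CPM and EPCAM at 5.73 CPM. The study called its peaks against a public melanocyte dataset, so a pigment gene without a peak was not shown to be closed. The effect of that control on which genes have peaks, here and in the gene lists below, was not tested.

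Members were spread unevenly over chromosomes. Chromosome 1 held 316, or 15.8% of members against 10.4% of all distal peaks. The share of a chromosome's distal peaks that were members was highest on chromosomes 17 (4.70%), 20 (4.62%) and 1 (3.74%), and lowest on chromosomes 18 (0.564%), 21 (0.947%) and 6 (1.02%). Distal non-members of chromosome 20 had the highest median of any chromosome, 2.90 CPM, but those of chromosome 17 had 2.38 CPM and those of chromosome 1 had 2.40 CPM. The lowest medians were on chromosomes 21 (1.73 CPM) and 18 (1.79 CPM), which also held few members. DNA copy number, which differs between chromosomes in cancer lines, was not measured here.

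**Figure D3:**
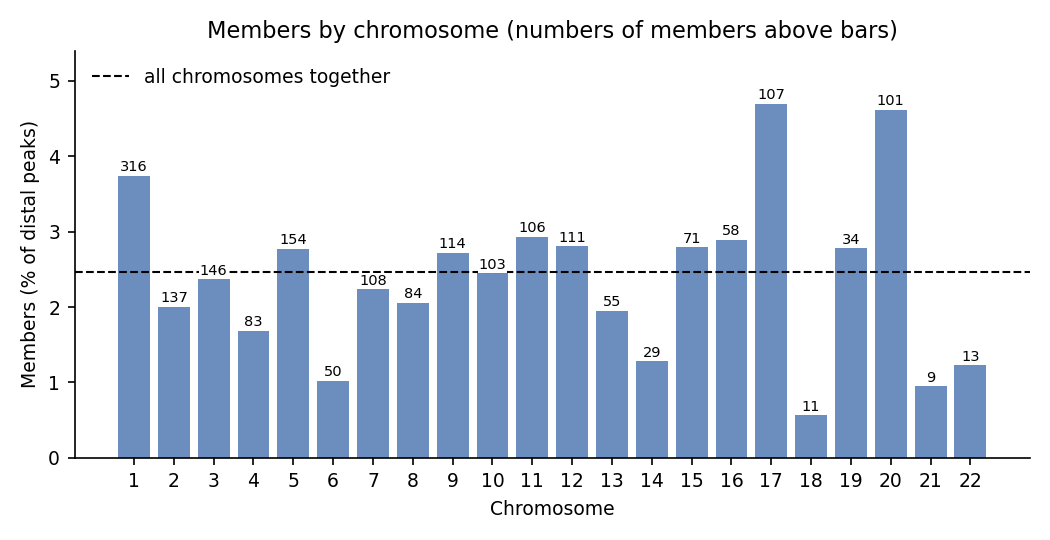
Members as a percent of all distal peaks of each chromosome, with the number of members above each bar and a dashed line at 2.47%, the share over all 22 chromosomes. Chromosomes 17, 20 and 1 stand above the line, and chromosomes 18, 21 and 6 are lowest.

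The densest stretch of 10 Mb was chromosome 20 from 50 to 60 Mb, where 35 of 435 distal peaks were members (8.05%) and the median of the non-members was 3.91 CPM. This stretch holds NFATC2, a transcription factor activated by the phosphatase calcineurin, which was the nearest protein-coding gene of 10 members, more than any other gene. They spanned 297 kb from 51335352 to 51631866, at 44.6 to 207 kb from an NFATC2 start site. Of the 10, 5 lay inside NFATC2 and 9 held the AP-1 word. The highest, at rank 15, measured 73.8, 82.5 and 85.3 CPM in EV and 82.2, 77.1 and 74.8 CPM in HMGB2OE libraries. Its centre is shown for its AP-1 word.
NFATC2 site, rank 15, chr20:51366398-51366597: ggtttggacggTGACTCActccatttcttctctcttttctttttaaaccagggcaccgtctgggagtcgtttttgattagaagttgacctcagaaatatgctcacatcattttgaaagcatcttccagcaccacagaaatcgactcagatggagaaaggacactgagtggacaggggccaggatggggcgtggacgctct
The summed level of the 10 was 478, 526 and 533 CPM in EV1 to EV3 and 525, 506 and 486 CPM in OE1 to OE3, with overlap between the conditions. Log2 fold changes of the 10 ran from -0.21 to 0.07, and none was called.

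After NFATC2 came 6 genes with 6 members each, of which the 4 of best rank are described. IGF1R, the receptor of insulin-like growth factor 1, had 5 of its 6 inside the gene. Their summed levels were 213, 225 and 223 CPM in EV and 221, 214 and 215 CPM in HMGB2OE libraries. SLC39A11, a zinc transporter, had all 6 in its introns within 60.6 kb, with 254, 267 and 285 CPM in EV and 281, 259 and 274 CPM in HMGB2OE libraries. MYOF encodes myoferlin, a protein of membrane repair, and 5 of its 6 lay inside it. Its sums were 199, 212 and 211 CPM in EV and 200, 188 and 184 CPM in HMGB2OE libraries, and its peaks had log2 fold changes from -0.32 to 0.10. The MYOF peaks at ranks 1036 and 1811 were lower without overlap, at -0.32 (SE 0.085) and -0.29 (SE 0.083), and passed edgeR's adjusted p-value without a fold limit. ZMIZ1, a co-regulator of transcription, had 4 members inside it and sums of 199, 223 and 230 CPM against 220, 210 and 220 CPM. WSB1 also had 6, up to 674 kb away, and 5 of these were among the 10 of highest dispersion. At IGF1R, SLC39A11, MYOF and ZMIZ1 the sums of the conditions overlapped.

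Members lay next to 1494 different protein-coding genes. Of these, 1151 were nearest to a single member and 41 to 4 or more. The median distance to the closest start site was 27.7 kb, against 34.1 kb for distal non-members, and 188 members (9.4%) were over 100 kb away, against 16.1%. Introns held the centres of 1134 members (56.7%), 955 in protein-coding genes and 179 in lncRNA genes, against 53.8% of distal non-members. A further 819 (40.95%) were intergenic, 18 lay in coding exons and 29 in untranslated or lncRNA exons. In 84.9% of members another distal peak lay within 12500 bases, the distance often used to join enhancers into clusters, against 69.8% of non-members. Another member lay that close for 260 (13%). They formed 124 groups, of which 10 had 3 or more members. The groups of 4 were beside LYST, a regulator of lysosome traffic, over 10.8 kb, and beside WSB1 over 4.55 kb in sequence that was mostly repeated. The LYST group summed to 188 CPM in EV and 174 CPM in HMGB2OE libraries, and 3 of its 4 peaks held the AP-1 word.

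Sequence words were counted on both strands over the whole width of a peak, 502 bases for all but 15 peaks. The AP-1 word TGACTCA was in 1038 members (51.9%), in 32.1% of all distal peaks and in 13.0% of peaks within 1 kb of a start site. Its share fell with rank, from 50.65% in the next 2000 distal peaks and 48.3% in the 4000 after those to 39.9% in the following 12000 and 28.3% in the 60963 lowest. More than 1 word was found in 297 members (14.85%) and in 4.49% of all distal peaks. A pair of members with several words in their centre, near COMMD9 (EV mean 57.7 CPM) and PI4KB (EV mean 53.4 CPM), chosen for display after their values were seen, shows how closely the words can stand.
COMMD9 site, rank 143, chr11:36149829-36150028: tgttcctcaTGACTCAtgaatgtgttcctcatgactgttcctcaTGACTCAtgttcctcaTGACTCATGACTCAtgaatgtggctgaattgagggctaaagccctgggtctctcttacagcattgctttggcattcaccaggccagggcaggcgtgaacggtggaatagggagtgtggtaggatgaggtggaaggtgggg
PI4KB site, rank 197, chr1:151311686-151311885: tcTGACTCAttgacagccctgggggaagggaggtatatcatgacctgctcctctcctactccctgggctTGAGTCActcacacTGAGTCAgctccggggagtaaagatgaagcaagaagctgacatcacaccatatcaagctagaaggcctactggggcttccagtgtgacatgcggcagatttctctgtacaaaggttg
In the COMMD9 site the 4 words lie in a short repeated stretch, and in the PI4KB site 3 words lie in both orientations.

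The excess of AP-1 words was not largest at the centre of the peaks. In the 20 bases to the left of the centre, members held 40.5 words per 1000 peaks and distal non-members 30.8. In the bin from 120 to 140 bases left of the centre, members held 34.5 and non-members 9.70. Counted in the central 200 bases, the word was in 36% of members, 38.8% of the next 2000 and 23.9% of all distal peaks, so that over this narrower window the members were not above the next rank band.

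**Figure D4:**
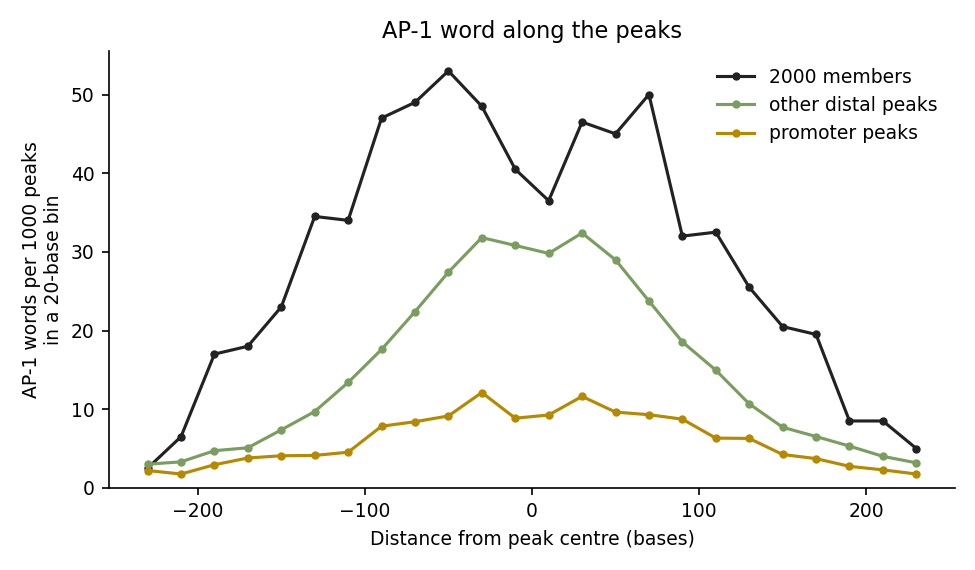
AP-1 words per 1000 peaks in bins of 20 bases, by distance from the peak centre, for the 2000 members, the other distal peaks and peaks within 1 kb of a start site. Members hold 40.5 words per 1000 peaks just left of the centre against 30.8 in other distal peaks, and 34.5 against 9.70 between 120 and 140 bases to the left.

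Other words were also more frequent in members than in all distal peaks. The TEAD word GGAATG was in 36.05% against 30.9%, the SOX words ACAATGG or ACAAAGG in 25.5% against 20.6%, the RUNX word TGTGGTT in 16.9% against 13.2%, and the ETS word CCGGAAG in 4.3% against 2.05%. The TFAP2 word was in 24.05% against 13.7%. The E-box CACGTG, which MITF reads, was in 5.85% against 5.64%. CTCF marks boundaries of chromatin loops, and its word, CCNNNAG then 2 letters of any kind then GGC, was less frequent in members, at 9.7% against 12.2%. In the next 2000 distal peaks the shares were 35.5% for TEAD, 23.75% for SOX, 15.6% for RUNX, 3.9% for ETS and 19% for TFAP2. They were 6.2% for the E-box and 9.1% for CTCF.

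Base composition differed too. Median GC content was 47.9% in members and 43.7% in distal non-members. Within each of 6 bands of GC content the AP-1 word was more frequent in members. The difference ran from 48.3% against 33.1% below 40% GC to 51.3% against 23% from 55 to 60% GC and 36.9% against 12.9% above 60% GC. The TEAD, SOX, RUNX and TFAP2 words were also more frequent in members in all 6 bands, and the CTCF word was less frequent in all 6. These shares describe the letters of the peaks and were not tested.

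Members with and without the AP-1 word had median EV levels of 33.9 and 33.5 CPM. Among members, 91 held both the AP-1 and the CTCF word, 947 the AP-1 word only and 103 the CTCF word only, which leaves 859 with neither.

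The members were then followed into HMGB2OE cells. Of the 2000, 1787 (89.35%) were also among the 2000 highest distal peaks by the HMGB2OE mean. Between single libraries, the 2000 highest distal peaks shared 90.65% to 92.55% within EV, 91.15% to 93.5% within HMGB2OE and 84.95% to 89.95% between the conditions, so every pair across conditions shared less than any pair within one. The 213 members that left had a median EV rank of 1778 and fell no further than rank 3689. The 213 that replaced them came from as low as EV rank 4136. With the 1.5-fold limit, 2 of the members that left were called lower, and none of the peaks that replaced them was called. Of all tested peaks, 1.44% were called lower and 1.87% higher. Both groups were picked by their change in rank between the conditions, so the direction of any call was set by the choice.

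Log2 fold changes were taken from edgeR's quasi-likelihood fit over 150117 tested peaks, and a peak was called when its adjusted p-value was below 0.05 and it had moved by 1.5-fold or more. All 2000 members were tested. The EV values that chose the members enter this contrast and favour falls in it, so its values are given as a description. Their median was -0.05, against -0.0049 for all tested peaks, and 36.05% lay above 0. With a loess trend on mean count removed, it was 0.012. From the 5th to the 95th percentile, members spanned -0.28 to 0.18 and all tested peaks -0.50 to 0.54. Within 0.25 of 0 were 91.1% of members and 64.0% of all tested peaks. The members' spread between replicates was estimated as low, with a median biological coefficient of variation of 7.30% against 11.6% over all tested peaks.

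Of the members 1 was called higher, where 1.87% of all tested peaks were, and 3 were called lower, where 1.44% were. Without a fold limit 22 members were higher and 103 lower (1.1% and 5.15%), against 3.44% and 3.03% of all tested peaks. The 3 HMGB2OE libraries lay above all 3 EV libraries in 94 members (4.7%), against 12.6% of tested peaks, and below them in 315 (15.8%), against 18763 tested peaks (12.499%). The conditions were separate in either direction in 409 members (20.45%), against 25.1% of tested peaks. With the 1.5-fold limit, calls became more frequent down the ranks, from 0.2% of members. There were 0 higher and 9 lower in the next 2000 distal peaks (0.45%) and 5 and 58 in the 4000 after those (1.575%). The following 12000 had 113 and 275 (3.23%), and the 59478 tested among the 60963 lowest had 1798 and 1030 (4.75%). The shares without a fold limit rose and then fell. Higher peaks were 2.6%, 4.275%, 6.03% and 4.02% of these bands in turn, and lower peaks 8.3%, 9.225%, 6.94% and 2.02%. The conditions were separate in 29.05%, 32.9%, 32.7% and 24.3%. The median log2 fold change of the lowest peaks was 0.04.

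**Figure D5:**
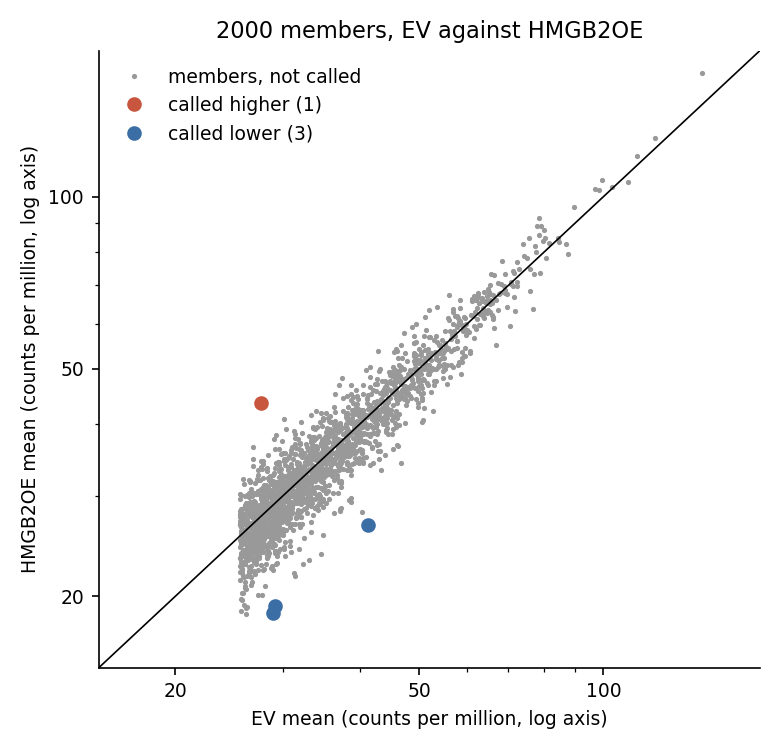
Mean level of each member in the 3 EV libraries and in the 3 HMGB2OE libraries, in CPM on log axes, with the line of equal levels. The sharp left edge at 25.5 CPM is the limit by which members were chosen, and the 1 member called higher and 3 called lower stand off the line.

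To set the choice apart from the contrast, members were chosen again on a single EV library and compared in the other 2 EV and the 3 HMGB2OE libraries. Each choice shared 1898 to 1920 sites with the members. Chosen on EV1, the median log2 fold change was -0.10, and without a fold limit 8 sites were higher (0.4%, against 2.39% of tested peaks) and 230 lower (11.5%, against 2.69%). Chosen on EV2 it was -0.01, with 20 higher (1%, against 2.03%) and 34 lower (1.7%, against 1.49%). Chosen on EV3 it was -0.01, with 45 higher (2.25%, against 3%) and 58 lower (2.9%, against 2.7%). The excess of falls was large only in the split where EV1 chose the sites and was left out of the contrast. With the 1.5-fold limit, 5, 3 and 6 sites were called in either direction (0.25%, 0.15% and 0.3%), against 2.82%, 2.29% and 3.46% of tested peaks. EV1 was the library in which members held the smallest share of counts, 7.07% against 7.66% in EV2 and 7.72% in EV3. The part of this share in the falls was not tested.

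The 3 members called lower were intergenic and held no AP-1 word. The first, at chr1:162538788-162539289 and 22.7 kb from UAP1, which makes UDP-N-acetylglucosamine, is the largest fall whose centre is printed above. It measured 42.3, 42.9 and 38.4 CPM in EV and 27.2, 28.0 and 24.7 CPM in HMGB2OE libraries, a log2 fold change of -0.65 (SE 0.080). Chosen on 1 EV library and compared in the others, it was called in each of the 3 splits. Each split reuses the HMGB2OE libraries and the remaining EV libraries of the full fit, so a repeated call is not independent support. The second lay at chr8:141075817-141076318, 41.2 kb from DENND3, an exchange factor for a Rab GTPase. It measured 29.5, 27.9 and 29.2 CPM in EV and 18.2, 19.9 and 18.1 CPM in HMGB2OE libraries (log2 fold change -0.64, SE 0.082), and it too was called in each split. The third, at chr12:67910287-67910788, lay 249 kb from IFNG, the interferon gamma gene. It measured 25.9, 31.1 and 30.2 CPM in EV and 21.5, 18.7 and 17.6 CPM in HMGB2OE libraries (log2 fold change -0.62, SE 0.094), and was called only in the split chosen on EV1. In all 3 the libraries of the conditions were separate. The UAP1 and IFNG peaks lost their calls when fold changes were adjusted for GC content, at log2 fold changes of -0.58 and -0.53. The IFNG peak also lost its call with the loess trend on mean count removed, at -0.56, and without EV2, EV3 or OE3, at -0.55, -0.58 and -0.56.

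The member called higher lay at chr1:110556341-110556842 in an intron of KCNA2, a voltage-gated potassium channel, with the start of KCNA10, another channel of that family, nearest at 37.4 kb. It measured 23.9, 28.8 and 30.2 CPM in EV and 45.5, 40.4 and 45.0 CPM in HMGB2OE libraries (log2 fold change 0.63, SE 0.089), with no overlap. It was called in the splits chosen on EV2 and on EV3. EV1 alone did not choose it, and without EV1 its log2 fold change was 0.53, under the limit.

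The members past the adjusted p-value alone differed in GC content by direction, and in the AP-1 word only the higher ones stood apart. The 22 higher ones had a median GC content of 51.9% and 3 held the AP-1 word (13.6%). The 103 lower ones had 42.7% and 55 held it (53.4%), while the 1875 others had 48.1% and 52.3% held it. Median log2 fold changes were 0.30 and -0.34. The next falls after the called ones were near TEX35, in an intron of PPM1H, a protein phosphatase, and in an intron of RASAL2, a Ras GTPase activator, at -0.56, -0.55 and -0.54. The next rises were in an intron of SH3PXD2A, a scaffold of invadopodia, and near WIF1, an inhibitor of Wnt signalling, at 0.42 and 0.41. The part of GC content in these directions was not tested, and the same values were not taken for peaks outside the members.

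Gene lists of the pathway and tissue were read through the nearest protein-coding gene, and 78 members lay at their genes. Without a fold limit 3 of these were lower (3.85%), against 3.03% of all tested peaks and 5.15% of members, and 0 were higher, against 3.44% and 1.1%, by edgeR's adjusted p-value. Of 16 melanocyte lineage and pigment genes, 4 had a member, MITF with 2 and OCA2, SOX10 and EDNRB with 1 each. These 5 were 0.25% of members, where the same genes took 0.195% of distal peaks, and their log2 fold changes ran from -0.14 to 0.04 around a median of -0.12. The highest, in an intron of MITF, the master regulator of melanocytes, measured 30.2, 31.8 and 30.9 CPM in EV and 28.1, 32.1 and 26.6 CPM in HMGB2OE libraries, with overlap. Of 21 genes of the invasive or undifferentiated melanoma state, 9 had 10 members. An EGFR intron measured 46.6, 47.1 and 49.8 CPM in EV and 44.7, 42.8 and 44.5 CPM in HMGB2OE libraries, and peaks near TNC and JUN had log2 fold changes between -0.08 and 0.02. None of these 15 was past the adjusted p-value.

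Among AP-1 genes, 2 of 8 had a member. The peak in an intron of ATF3, a stress-induced partner of JUN, at chr1:212596158-212596659, measured 48.0, 54.8 and 55.1 CPM in EV and 45.0, 44.9 and 36.8 CPM in HMGB2OE libraries, and was lower without overlap (log2 fold change -0.34, SE 0.085). It passed the adjusted p-value without a fold limit only in the split chosen on EV1, and not after adjustment for GC content, at -0.27. Of 16 neural crest specifiers, 7 had 12 members. ETS1, a transcription factor of the ETS family, had the highest, at 67.9, 74.9 and 82.5 CPM in EV and 80.4, 74.4 and 79.5 CPM in HMGB2OE libraries, with overlap. A peak in an intron of the lncRNA PVT1, 439 kb from MYC, was lower in all HMGB2OE libraries, at 34.7, 38.2 and 38.5 CPM in EV and 30.5, 28.6 and 26.2 CPM in HMGB2OE (log2 fold change -0.41, SE 0.083). It passed the adjusted p-value in all 3 splits, which share libraries with the full fit. The pair of members near FOXD3 had log2 fold changes of -0.21 and -0.14.

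YAP and TEAD genes had 7 members at 5 of 12 genes, with log2 fold changes from -0.22 near AMOTL2 to 0.12 at WWTR1, which encodes TAZ. Of 55 axon guidance genes, 16 had 20 members, 1% of members against 1.31% of distal peaks. EFNB2, an ephrin ligand, and the semaphorins SEMA3A and SEMA3E had 2 each, with log2 fold changes from -0.23 to 0.10, and PLXNA2, a semaphorin receptor, had 2 at 0.11 and 0.25. None of the 27 in these lists passed the adjusted p-value. Adhesion and matrix genes had 26 members at 17 of 72 genes, 1.3% against 0.842% of distal peaks. Of these, 1 was past the adjusted p-value, and lower. COL4A1, a basement membrane collagen, had 5, the highest at 73.3, 78.5 and 81.0 CPM in EV and 80.4, 78.2 and 81.7 CPM in HMGB2OE libraries. COL4A2, its partner chain, had 2 with log2 fold changes of 0.02 and 0.08, and THBS1, a matrix glycoprotein, had 2 at -0.10 and -0.04. Over the 7 lists the median log2 fold changes of members lay between -0.21 and 0.01, and those of all distal peaks at the same genes, members included, between -0.01 and 0.13. For AP-1 genes (2 members) the medians were -0.21 and 0.13, for melanocyte genes (5 members) -0.12 and 0.06. For neural crest genes (12 members) they were -0.06 and 0.04. Over all members and all distal peaks the medians were -0.05 and 0.02, and the choice of members by EV level favours falls in them. These differences are therefore a description and not a result about the lists. No member of any list was called with the 1.5-fold limit.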

How the data were processed

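ATAC-seq libraries of A375 cells were processed by the authors: reads were trimmed (Trim Galore 0.6.7, cutadapt 4.0), aligned to hg38 with Bowtie 2, deduplicated with Picard and used to call MACS2 peaks against a public melanocyte dataset. Blacklisted regions were removed, peaks were merged into 1 set, and the deposited values are raw featureCounts counts per peak and library. The treatment of reads with several alignments and any Tn5 shift are not given in the sources used here, and both bear on peaks of repeated or mitochondrial sequence.

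Counts were fitted with edgeR 4.0.16 in R 4.3.3 (TMM, filterByExpr, quasi-likelihood F test with no covariate, Benjamini-Hochberg adjustment over all tested peaks), after a check on simulated data. Standard errors are the size of the log2 fold change over the square root of F. Levels are in CPM over a library's peak counts, and normalized counts divide by the TMM library size. Peak coordinates are as deposited, and sequence windows are 1-based. Repeat content was measured as 31-base words found more than once in hg38, sampled every 5 bases.

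Members and lists were chosen with earlier results of these data known. Named were the 10 highest members, called members without overlap between conditions, peaks at the rank limit, the 5 genes with most members and up to 4 genes of each list, of which 1 of the 10 highest members and some genes are not reported here. Alternatives were other scalings, DESeq2 1.42.0, count filters, fold limits, the replicate block, leaving out libraries, and other choices of members.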

Additional observations from a re-analysis of the deposited data

How the results depend on the processing

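The 1.5-fold calls among members, 1 higher and 3 lower, were the same under library size scaling, DESeq2 size factors, the DESeq2 test, both count filters and the replicate block alone, and 1 higher and 2 lower were called with a loess trend removed. With GC-content offsets, alone or with the replicate block, 1 member was lower. A fold limit between 1 and 1.5 gave 8 higher and 58 lower, and no fold limit gave 22 and 103. Leaving out each library in turn gave 0 to 1 higher and 2 to 10 lower, with 0 higher without EV1, 10 lower without EV2 and 7 lower without OE1. Chosen on EV1 alone there were 0 higher and 5 lower, and chosen on EV3 alone 2 higher. The 2000 highest by all 6 libraries or by the HMGB2OE mean each held 1 lower, the 1000 highest held 0 higher and 1 lower, and the 4000 highest held 12 lower. Over all tested peaks, 1.5-fold calls in either direction made up 3.31% in the main fit. They ranged from 2.29% without EV2 to 3.71% with the replicate block.

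The median log2 fold change of members lay between -0.10 (without EV1) and 0.012 (loess trend removed), within the spread of EV libraries. The AP-1 share was 51.3% to 52.7% under other choices of members and 36% in the central 200 bases. The share also among the 2000 highest in HMGB2OE was 88% without EV3 in the choice. It was 90.95% for the 4000 highest in each condition and 90.8% beyond 20 kb. The GC-adjusted loss of calls has its value in the report, and its cause was not tested. Of 26 peaks followed singly under 15 alternatives, 16 values had the opposite sign, none for a peak past its adjusted p-value. Same-number libraries had correlations of -0.088, 0.19 and 0.13 between their deviations from the group means, so the numbers were not taken to pair them. The replicate block gave 1 higher and 3 lower members, and 3192 higher and 2383 lower peaks over all tested, against 2800 and 2166 without it. The libraries are technical replicates, so the spread between cultures was not measured.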
